A study of Mus musculus with 12 samples.

Results

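Macrophage and complement C1q genes were measured in pancreatic islets of NOD mice, a strain with spontaneous autoimmune diabetes, and of NOD.B10 mice. The 10 genes were chosen by name: Lyz2, Mpeg1, C1qa, C1qb, C1qc, Csf1r, Cd68, Aif1, Tyrobp and Fcer1g. Of these, 9 matched at least 1 probe of the array, with 14 of the 41174 non-control probes. No probe was matched to Cd68. The NOD group held 6 female mice and the NOD.B10 group 6 female mice, all 12 weeks old, with no treatment named in the labels. The labels call NOD.B10 the healthy control. Their islets were cut from pancreas sections by laser, at least 40 per mouse, and the pooled RNA was amplified. It was labelled with Cy5 (red) and hybridised beside a universal mouse reference RNA labelled with Cy3 (green), 1 array per mouse and without dye swap. A log2 ratio below is islet Cy5 over reference Cy3 after normexp and loess, and a log2 change is the NOD mean minus the NOD.B10 mean. A ratio of 0 is the trend of spots of like brightness on that array, not equal amounts of RNA.

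Resident macrophages are the main myeloid cells of a healthy islet, and more myeloid cells enter with T and B cells in insulitis. C1q, the recognition protein of the classical complement pathway, is built from A, B and C chains and is made mostly by macrophages. Csf1r is the receptor for CSF1 and IL-34, on which most macrophages depend, whereas Tyrobp (DAP12) and Fcer1g (the Fc receptor gamma chain) are adaptors that pass receptor signals to the kinase Syk.

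The C1q genes stand next to each other on chromosome 4 in the order C1qb, C1qc, C1qa. The 250 bases before the start site of C1qb and C1qc are shown because only the C1qc signal could be read in islets, and those of Lyz2 and Mpeg1 because these genes had the largest changes after loess. The sequences are from RefSeq on GRCm38.p6, read 5′ to 3′ on the strand of the gene. Capitals mark GAGGAA or, on the other strand, TTCCTC, a motif bound by PU.1, an ETS factor.
C1qb, chr4:136886201-136886450, minus strand: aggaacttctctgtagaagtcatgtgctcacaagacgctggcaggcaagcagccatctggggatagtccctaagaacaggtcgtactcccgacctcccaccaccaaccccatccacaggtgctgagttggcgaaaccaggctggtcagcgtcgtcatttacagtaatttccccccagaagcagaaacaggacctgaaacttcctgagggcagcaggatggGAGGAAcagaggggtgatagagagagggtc
C1qc, chr4:136892915-136893164, minus strand: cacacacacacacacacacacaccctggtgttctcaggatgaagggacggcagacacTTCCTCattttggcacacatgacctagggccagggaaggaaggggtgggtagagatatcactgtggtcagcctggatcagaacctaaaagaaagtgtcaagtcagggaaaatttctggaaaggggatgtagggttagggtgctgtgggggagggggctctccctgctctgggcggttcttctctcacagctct
Lyz2, chr10:117282273-117282522, minus strand: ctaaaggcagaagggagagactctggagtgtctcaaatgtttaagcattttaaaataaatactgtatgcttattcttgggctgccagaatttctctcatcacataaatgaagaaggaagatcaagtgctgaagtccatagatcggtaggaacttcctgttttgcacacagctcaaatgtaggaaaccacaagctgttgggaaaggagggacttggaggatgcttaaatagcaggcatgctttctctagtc
Mpeg1, chr19:12460520-12460769, plus strand: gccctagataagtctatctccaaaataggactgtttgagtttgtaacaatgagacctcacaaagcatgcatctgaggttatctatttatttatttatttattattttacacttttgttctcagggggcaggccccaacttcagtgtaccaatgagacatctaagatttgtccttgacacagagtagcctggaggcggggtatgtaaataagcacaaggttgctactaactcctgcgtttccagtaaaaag

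Not every chromosome was searched, and of the 10 genes 7 had a promoter among those searched. The motif was present on either strand in 4 of these 7 (C1qb, C1qc, Cd68 and Aif1) and in 23.3% of the 32851 promoters of this length that were searched. Counted from the start site, it began at -30 in C1qb and, on the opposite strand, at -193 in C1qc. The Lyz2 and Mpeg1 windows hold no match, which says only that these 6 letters are not there. Other forms of ETS site were not searched.

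Signal was the first limit. Cy5 was well above background on 14.0 ± 2.55% (SD, n = 6) of the non-control spots in NOD, with a range of 10.7 to 17.3%. In NOD.B10 it was 6.21 ± 1.37% (SD, n = 6), with a range of 3.96 to 7.88%. The groups did not overlap (two-sided exact permutation test over samples, p = 0.00216, the smallest that 924 arrangements can give). For the reference channel this share was 50.4 ± 1.94% in NOD, against 50.1 ± 2.27% in NOD.B10 (SD, n = 6 each). Ins1, Ins2 and Gcg, hormone genes of beta and alpha cells, passed the same mark on every one of the 12 arrays. The arrays lay on 4 slides. Slide 1 held NOD only, slide 4 NOD.B10 only, and slides 2 and 3 held both strains. Slide 4 was read on another scan day.

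A gene was tested when at least 4 of the 12 arrays showed its Cy5 signal well above background, which held for 3922 genes. Of the 9 genes with a probe, 5 passed: Lyz2, Mpeg1, C1qc, Fcer1g and Aif1, each with all 6 NOD arrays well above background. In NOD.B10 the arrays well above background numbered 6 for Lyz2, 5 for Mpeg1, 2 for Fcer1g, 1 for C1qc and 0 for Aif1. Lyz2 and Mpeg1 would thus have passed on their NOD.B10 arrays alone, and the others would not. All 5 tested genes were higher in NOD (limma, Benjamini-Hochberg adjusted p under 0.05), where 18.7% of all tested genes were called higher and 18.1% lower. In all 5, every NOD array lay above every NOD.B10 array, as in 9.51% of all tested genes. Because the filter takes in genes that are bright in NOD alone, the count of 5 is a description. In bulk tissue, more macrophages and more RNA per macrophage cannot be told apart.

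**Figure D1:**
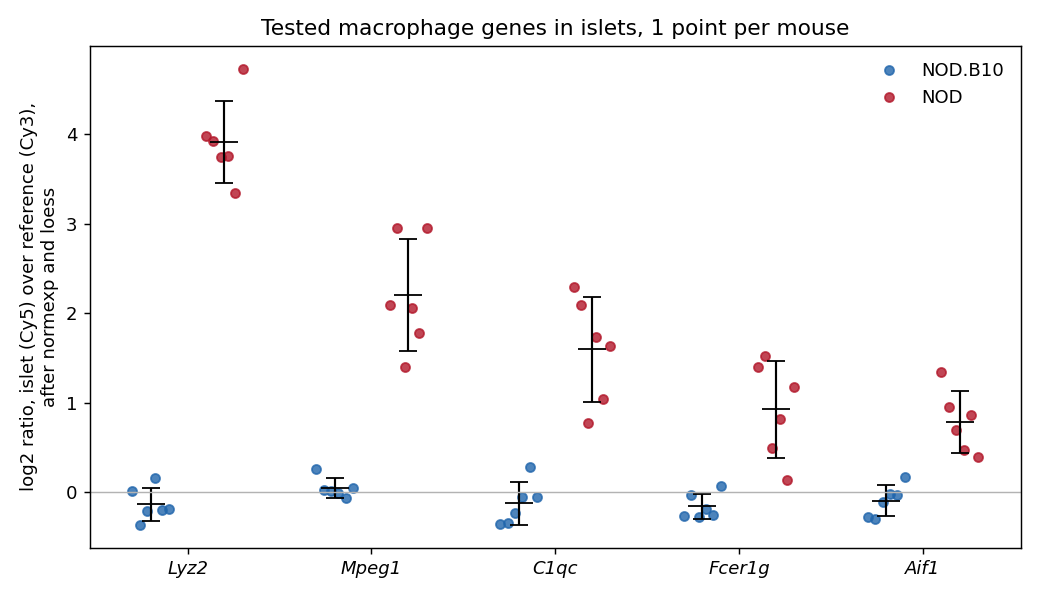
Each point is 1 mouse, with the log2 ratio of islet over reference signal on the vertical axis for the 5 tested genes, and bars give the mean and SD of 6 mice per strain. The strains do not overlap for any of the 5, and the gap is widest for Lyz2 and narrowest for Fcer1g, whose lowest NOD value was 0.14 and highest NOD.B10 value 0.07.

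Lyz2, the lysozyme of macrophages, monocytes and neutrophils, had the largest change of the 5 tested genes after loess, though not with the scanner's own ratios, where Aif1 had it. Its log2 ratio was 3.34 at the lowest, 3.84 at the median and 4.73 at the highest in NOD, and -0.36, -0.19 and 0.16 in NOD.B10. The lowest NOD mouse (replicate 5) was still far above the highest NOD.B10 mouse (replicate 4). The change was 4.05 (SE 0.189), a 16.5-fold difference (limma, adjusted p = 4.38e-08), the smallest p-value of the 3922 genes and the fifth largest rise (rank 5). The background-subtracted Cy5 signal, in scanner units, was 683 to 3828 with a median of 1889 in NOD. In NOD.B10 it was 18 to 48.5 with a median of 38.25. The reference signal of the same spot was alike, with medians of 31957 in NOD and 30464 in NOD.B10, so Cy5 was 6.1% of Cy3 in NOD and 0.131% in NOD.B10 at the median. Among 411 probes with a reference signal of at least 10000, the NOD.B10 value of Lyz2 was not at the bottom: 160 of them, Lyz2 counted, had a share as low or lower, and the lowest was 0.0171%. How much of this low NOD.B10 signal comes from the Cy3 label was not tested.

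A second Lyz2 probe was well above background on 0 NOD arrays and 1 NOD.B10 array, with a change of -0.08, and its reference medians were 28.5 and 22.75. The difference thus rests on 1 probe. Lyz1, the close paralog of Lyz2 found in Paneth cells, has a probe of its own that was well above background on 4 NOD arrays and 0 NOD.B10 arrays. Its median Cy5 signal was 7.75 in NOD and -2.5 in NOD.B10, and its log2 change was -0.00. Whether the Lyz2 probe also binds Lyz1 RNA was not tested.

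Mpeg1, perforin-2, a pore-forming protein of macrophage vesicles, rose as well. Its log2 ratio was 1.40 at the lowest, 2.08 at the median and 2.95 at the highest in NOD. In NOD.B10 the values were -0.06, 0.02 and 0.26. NOD replicates 2 and 6 were the highest and replicate 3 the lowest. The change was 2.16 (SE 0.237), or 4.47-fold (limma, adjusted p = 5.21e-05), and it ranked 53 of 3922 by size. As NOD.B10 replicate 6 was not well above background, the bound by the rule given for C1qc below was 3.77-fold. Net Cy5 ran from 134 to 648 in NOD and from 10.5 to 23.5 in NOD.B10. A second Mpeg1 probe was well above background on none of the 12 arrays.

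C1qc, the C chain of C1q, rose too. The log2 ratio was 0.77, 1.69 and 2.29 (lowest, median, highest) in NOD and -0.35, -0.14 and 0.28 in NOD.B10. NOD replicates 1 and 2 were high, replicates 3 and 5 low, and NOD.B10 replicate 5 stood at the top of its group, with the only NOD.B10 signal well above background. The change was 1.72 (SE 0.236; limma, adjusted p = 0.000222). As 1 of 6 NOD.B10 arrays was well above background, the difference is given as at least 2.64-fold, with each NOD.B10 signal raised, where lower, to the 10th percentile of that array's bright signals. Net Cy5 ran from 63 to 323 in NOD and from 2 to 20 in NOD.B10.

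C1qa and C1qb, the other chains of the same protein, could not be read. Their Cy5 signal was well above background on none of the 12 arrays, and net Cy5 stayed at or below 4.5 for C1qa and 11.5 for C1qb. The reference gave little signal as well: median Cy3 was 14.25 in both strains for C1qa, and 9.5 in NOD and 12.75 in NOD.B10 for C1qb, against 1477 and 1411 for C1qc. The log2 changes were 0.00 for C1qa and -0.04 for C1qb. Values at background say nothing of how these chains differ between strains, so C1q is described here by C1qc alone.

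Csf1r was dim, above background on NOD replicates 1, 2 and 6 and on no NOD.B10 array, and so missed the filter by 1 array. Net Cy5 of its brightest probe was 9 to 33.5 with a median of 12.5 in NOD, and -0.5 to 6 with a median of 1 in NOD.B10. These signals did not overlap, but the log2 ratios did: NOD.B10 replicate 3 (0.16) lay above NOD replicates 3 and 4. The log2 change was 0.36 (SE 0.10). With all 17026 genes tested, whatever their signal, Csf1r was called (limma, adjusted p = 0.0438), which made 6 of 9 genes. Its other probes, numbered 2 and 3, were above background nowhere.

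Aif1, IBA1, an actin-bundling protein widely used to stain macrophages and microglia, rose as well. Its log2 ratio was 0.39, 0.78 and 1.34 in NOD and -0.29, -0.07 and 0.17 in NOD.B10 (lowest, median, highest). Replicate 1 was the highest NOD mouse and replicate 6 the lowest. The change was 0.88 (SE 0.155; limma, adjusted p = 0.000941). As no NOD.B10 array was well above background, the difference is given as at least 1.55-fold, by the same rule as for C1qc. Net Cy5 was 28 to 83.5 in NOD and -2.5 to 7 in NOD.B10. A second Aif1 probe was above background nowhere, with a change of -0.00.

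The adaptors parted by signal. Fcer1g rose, with a log2 ratio of 0.14, 1.00 and 1.52 in NOD and -0.27, -0.22 and 0.07 in NOD.B10 (lowest, median, highest). NOD replicates 1 and 2 were high and replicate 5 was close to the NOD.B10 range. The change was 1.08 (SE 0.21; limma, adjusted p = 0.00166), and by the same rule at least 1.87-fold, with 2 of 6 NOD.B10 arrays well above background. Net Cy5 was 27.5 to 235 in NOD and 4.5 to 11 in NOD.B10. Tyrobp was well above background on NOD replicate 2 alone and was not tested. Its net Cy5 was -2 to 13 in NOD and -1.5 to 3 in NOD.B10, with a log2 change of 0.10 and medians of 127 and 113 in the reference.

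**Figure D2:**
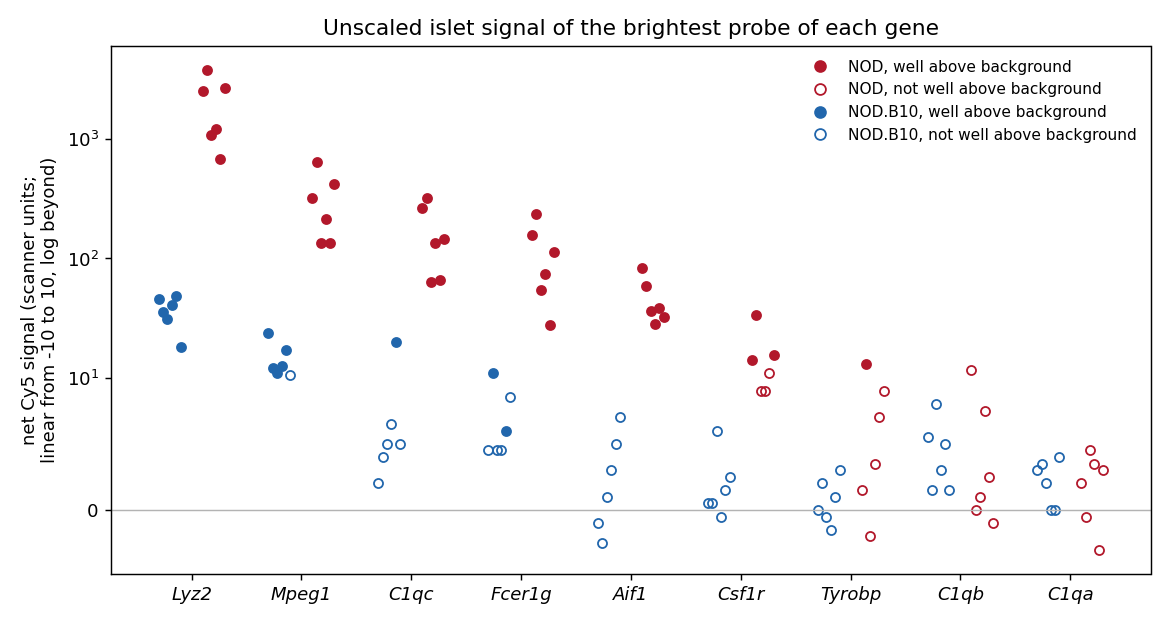
Background-subtracted Cy5 signal (scanner units, linear near 0 and logarithmic beyond) of the brightest probe of each of 9 genes, 1 point per mouse, filled where the signal was well above background and open where it was not. Lyz2 is filled in both strains, Aif1 in NOD only, and C1qa and C1qb in neither.

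The reference signal of the 14 probes was compared between strains on the log2 scale, since a difference there would move the ratio. No probe passed (two-sided exact permutation test over samples, adjusted over 14 probes; smallest adjusted p = 0.151). The difference, NOD minus NOD.B10, was -0.01 for Lyz2 and C1qc, 0.01 for Fcer1g, 0.17 for Aif1 and 0.21 for Mpeg1.

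The sizes of the changes were compared between genes, a comparison added after the data were seen. Most NOD.B10 values of Aif1, C1qc and Fcer1g were not well above background, so the size of their changes rests on values near background. In 8 of the 10 pairs of tested genes the change differed (two-sided exact permutation test over samples, adjusted over 10 pairs). The rise of Lyz2 exceeded that of Mpeg1 by 1.89 on the log2 scale (SE 0.199; exact permutation, adjusted p = 0.00361), and those of C1qc, Fcer1g and Aif1 by 2.33, 2.96 and 3.17. C1qc exceeded Fcer1g by 0.64 (SE 0.162; exact permutation, adjusted p = 0.00928). Mpeg1 and C1qc differed by 0.44 (SE 0.247; exact permutation, adjusted p = 0.118) and Aif1 and Fcer1g by -0.20 (SE 0.235; exact permutation, adjusted p = 0.409). This order did not hold with the scanner's own processed ratios, whose background subtraction and dye normalisation both differ. There the changes were 2.91 for Lyz2, 2.61 for Mpeg1, 2.83 for C1qc, 2.46 for Fcer1g and 3.35 for Aif1. Then 0 of 10 pairs differed (smallest adjusted p = 0.657, exact permutation; smallest unadjusted p = 0.197).

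Within NOD the mice differed among themselves. The mean log2 ratio of the 5 tested genes was 2.22, 2.29, 1.42, 1.77, 1.43 and 2.18 in NOD replicates 1 to 6, and between -0.20 and 0.01 in NOD.B10. Replicates 1, 2 and 6 were high and replicates 3 and 5 low in this mean. The genes did not all rank the mice alike: replicate 6 was the highest for Lyz2 and Mpeg1 and the lowest for Aif1, and replicate 5 was the lowest for Lyz2 and Fcer1g but rank 3 of 6 for Aif1. The share of spots with bright Cy5 was 16.5, 17.3, 12.4, 12.9, 10.7 and 14.6% in the same mice, so the 3 mice with the highest mean also had the 3 highest shares.

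**Figure D3:**
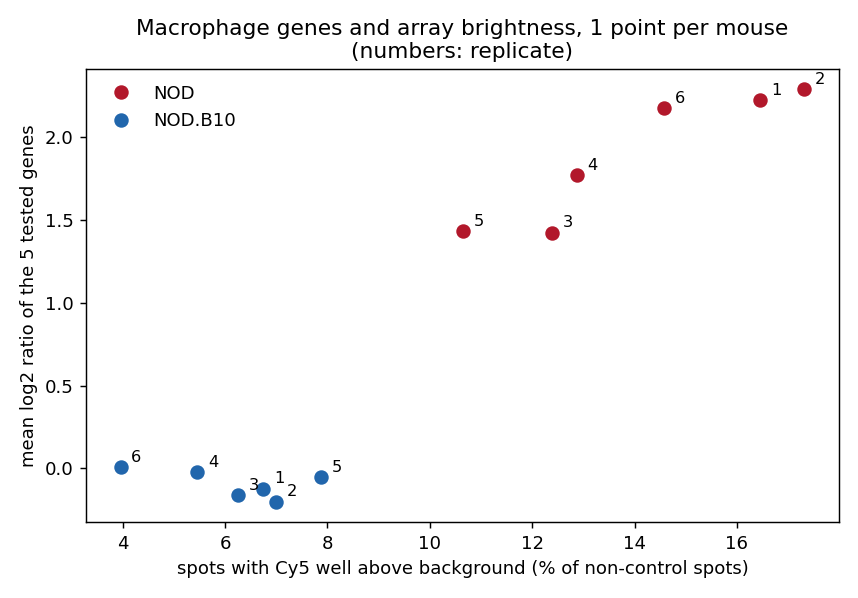
Mean log2 ratio of the 5 tested genes against the percentage of non-control spots with Cy5 well above background, 1 numbered point per mouse. NOD mice lie at 10.7 to 17.3% and 1.42 to 2.29, NOD.B10 mice at 3.96 to 7.88% and -0.20 to 0.01, with no overlap on either axis.

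Brightness and strain therefore moved together. Over 1083 probes bright on all arrays, the unscaled Cy5 signal was higher in NOD by 1.65 (log2) at the median. The same difference for Lyz2 was 5.60, or 3.96 beyond that median. With the share of bright spots as a covariate, the Lyz2 change was 3.54 (limma, adjusted p = 0.00751). Mpeg1 (1.13, adjusted p = 0.608), C1qc (0.49, adjusted p = 0.84), Aif1 (0.67, adjusted p = 0.73) and Fcer1g (-0.06, adjusted p = 0.979) were then not called, and 3 genes of 3922 were. As the shares of the 2 strains did not overlap, the part of brightness cannot be told apart from that of strain for any of the 5 genes, Lyz2 included.

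With slide as a term, all 5 were still called: Lyz2 changed by 3.95, Mpeg1 by 1.99, C1qc by 1.34, Fcer1g by 0.82 (limma, adjusted p = 0.0214) and Aif1 by 0.65 (limma, adjusted p = 0.0168). Within slide 2, which held NOD replicates 3 and 4 and NOD.B10 replicates 1 and 4, the changes were 3.67, 1.61, 1.46, 0.89 and 0.73 in the same order, and Lyz2 alone passed (limma, adjusted p = 0.0219). Within slide 3 they were 4.23, 2.37, 1.23, 0.75 and 0.56, and none passed (3 of 5 at an unadjusted p under 0.05; limma, adjusted p = 0.0717 for Lyz2). All 10 of these within-slide changes were above 0.

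**Figure D4:**
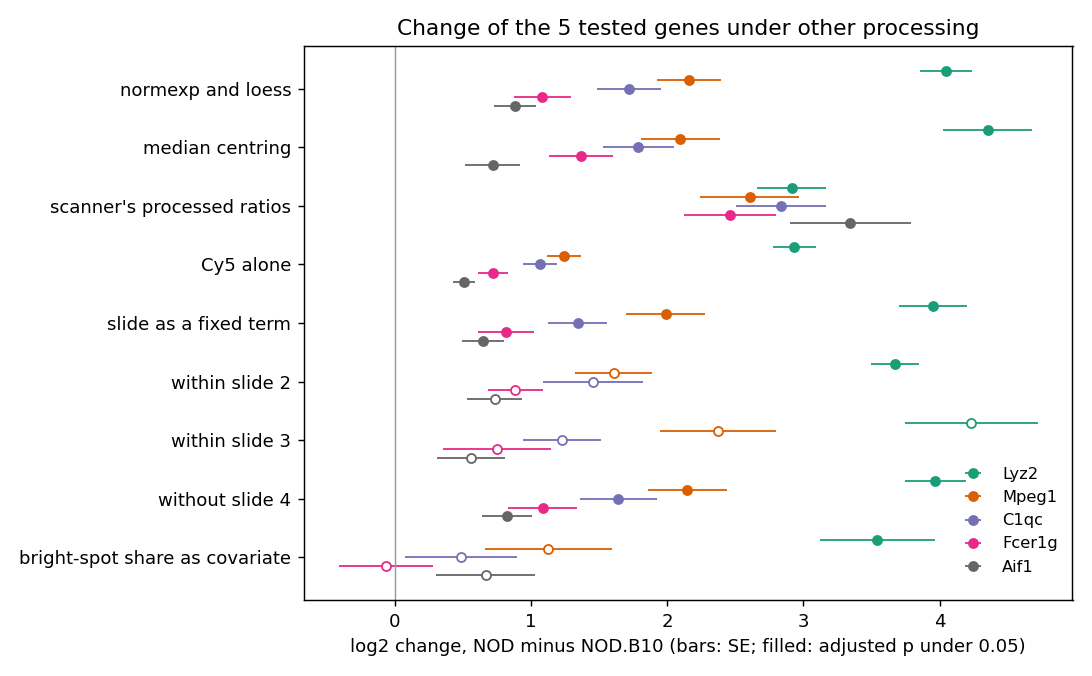
Log2 change of the 5 tested genes, NOD minus NOD.B10, under 9 ways of processing (rows), with bars of 1 SE and filled points where the adjusted p was under 0.05. The order of the genes alters with the scanner's processed ratios, where Aif1 is the largest, and with bright-spot share as covariate Lyz2 alone is filled.

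Other genes tied to these were described by list, each with its count and median beside that of all tested genes (median log2 change -0.01). Genes that passed the filter through NOD alone had to be higher there in signal, so the median over all genes with a probe is given too. Of 52 other macrophage and monocyte genes, 51 had a probe and 14 were tested, with 9 called higher and 0 lower. The median change was 0.66, against 0.01 over all 51. With slide as a term 6 were higher. Ctss, a lysosomal protease of antigen presentation, was 19.6-fold higher (4.30, SE 0.413), with 5 of 6 NOD.B10 arrays above background. By the rule used for C1qc it was at least 12.2-fold higher. Sirpa, an inhibitory receptor of myeloid cells, was 2.18-fold higher, and Ly86 and Ms4a7 changed by 2.29 and 1.51 with 1 NOD.B10 array above background each. Irf8 was called higher with 0 NOD.B10 arrays above background and a bound of 0.92-fold, so no rise is given for it. Adgre1, which encodes F4/80, was tested with a change of -0.07 and not called. Itgam, Cd14, Cx3cr1, Mrc1 and Mertk were among 31 that were well above background on no array.

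Of 42 other complement genes, 13 were tested, and 3 were called higher and 3 lower. The median change was 0.17, against -0.03 over all 40 with a probe. The lower calls were lost in 3 alternatives: 1 was higher and 0 lower with slide as a term, 7 and 0 with the scanner's ratios, and 8 were higher with median centring, where 0 of all 3922 genes were lower (limma; 2 lower unadjusted). C3, the component that the classical pathway cleaves downstream of C1q, was 3.40-fold higher (1.77, SE 0.198; limma, adjusted p = 5.83e-05). Cfp (properdin) and Itgax, a chain of complement receptor 4, were called higher, by 0.66 and 0.45, with 0 NOD.B10 arrays above background each. By the rule used for C1qc their bounds were 0.99-fold and 0.62-fold, so no rise is given for them. The 3 called lower were Mbl2 and Masp2 of the lectin pathway, above background on 1 NOD.B10 array each, and Calr, above background on 0. Net Cy5 was higher in NOD for Mbl2 (median 15 against 4.5) and Masp2 (8.75 against 4), so no direction is given for these genes.

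Of the partners of the adaptors, meaning receptors and kinases of ITAM signalling, 10 of 38 were tested and all 10 were called higher. Their median was 1.03, against 0.05 over all 34 with a probe. With slide as a term 6 were higher. All 10 had no NOD.B10 array above background, so they entered through NOD alone. Plcg2, a phospholipase, was at least 2.37-fold higher, Blnk, a B cell adaptor, at least 1.89-fold, Klrd1, an NK receptor chain, at least 1.52-fold, and Lcp2 at least 1.38-fold. By the rule used for C1qc the bounds of Fcgr1, Pik3cd, Inpp5d and Hcst were 0.90, 0.94, 0.95 and 0.72-fold. No rise is given for them. Syk, Trem2 and Fcgr3 were above background nowhere.

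Of 21 genes of CSF1 receptor ligands and signalling, 7 were tested, 4 were called higher and 1 lower, with a median of 0.37, against 0.05 over all 21. With slide as a term 2 were higher and 0 lower. Csf2rb2 and Csf2ra are subunits of the receptors for IL-3 and GM-CSF rather than of the CSF1 receptor, and Grb2 and Akt1 serve many receptors. Csf2rb2 was at least 2.24-fold higher, Grb2 at least 1.72-fold, Csf2ra at least 1.54-fold and Akt1 1.29-fold. The ligand gene Csf1 was above background nowhere. Of 30 lysosome genes, 12 were tested, 4 were higher and 0 lower, with a median of 0.10, against 0.00 over all 30. The 4 were Ctsh (at least 3.30-fold), Ctsb (2.15-fold), Laptm5 (at least 1.70-fold) and Ctsc (at least 1.66-fold). With median centring 9 of the 12 were called higher, where 50.6% of all tested genes were. With slide as a term 3 were higher. With the scanner's ratios 6 were, where 27.9% of all tested genes were, and Ctsb was not called (0.45, limma, adjusted p = 0.174).

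Markers of other leukocytes moved with these genes. Of 14 pan-leukocyte markers, 10 were tested and all 10 were called higher, Ptprc (CD45) at least 10.3-fold and Srgn 11.8-fold. For T cells it was 5 of 5 tested, with Thy1 at least 4.78-fold higher. For B and plasma cells 6 of 7 were called, with Jchain at least 8.85-fold. For NK cells it was 3 of 3 and for dendritic cells 2 of 2. Most of these genes passed the filter through NOD alone: 9 of the 10 pan-leukocyte markers, 4 of 5 for T cells, all 7 for B and plasma cells, 3 of 3 for NK cells and 2 of 2 for dendritic cells. With slide as a term the genes called higher were 9, 3, 5, 2 and 0 in that order. Of all tested genes, 18.7% were called higher without that term. The median change of the tested markers was 1.98, 1.13, 1.93, 1.72 and 0.88 in the same order. Over all markers with a probe it was 1.75, 0.24, 0.37, 0.08 and 0.02. Above background on no array were 1 of 14, 6 of 12, 5 of 14, 6 of 10 and 10 of 12. By the rule used for C1qc the bounds were 0.93-fold for Cd3d, 0.80-fold for Cd5, 0.46-fold for Il2rb and 0.62-fold for Itgax. No rise is given for these genes. The summed net Cy5 of the T cell markers was 263 to 1472 in NOD and 13.5 to 48.6 in NOD.B10, that of the B and plasma cell markers 424 to 3089 and 15 to 87.4. The sum depends on the probes of each list, so the lists are not compared with each other. Several of the 10 genes are also expressed by other myeloid cells, and Fcer1g by NK cells. The part of these cells in the result was not tested.

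Neutrophil markers, which matter because neutrophils make Lyz2, were near background: 11 of 12 with a probe were above background on no array. Their summed net Cy5 was 28.7 to 88.4 in NOD and 20.4 to 56.7 in NOD.B10. S100a9, the 1 tested, was lower by loess (-2.04) and also lower with the scanner's ratios (-1.58), Cy5 alone (-0.44) and slide as a term (-1.49), but not with median centring (0.32; limma, adjusted p = 0.0885). Net Cy5 of S100a9 was higher in NOD (median 42.5 against 26.5), so no direction is given for this gene. The part of neutrophils in the Lyz2 result was not tested further.

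Islet endocrine markers were lower in 6 of 11 tested and higher in 0, and acinar markers lower in 4 of 6 and higher in 0, and with the scanner's ratios they were lower in 9 and 5. Under median centring 0 of either list were lower. There 3 of the 11 endocrine markers and 50.6% of all tested genes were higher. Gcg was among the 3 (-1.19 after loess, 1.21 with median centring and 1.07 with Cy5 alone). Endothelial markers were called in neither direction after loess (0 of 4, limma). With the scanner's ratios 2 of the 4 were lower, and with median centring 1 was higher. Mesenchymal markers were called higher in 2 of 10, among them Vim at least 2.54-fold, and lower in 1. The gene called lower, Col1a1, had a higher net Cy5 in NOD (median 97.4 against 25.75), so no direction is given for it. With the scanner's ratios 1 mesenchymal marker was higher and 0 lower.

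**Figure D5:**
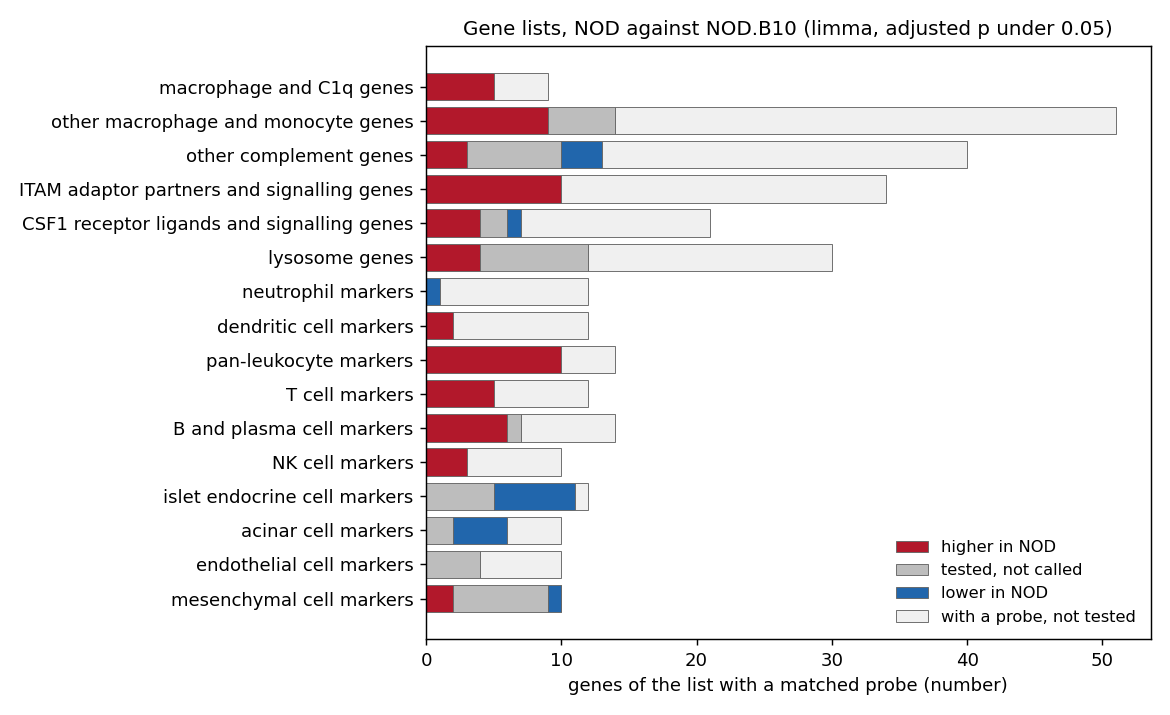
Horizontal bars count the genes of each list that have a matched probe, split into higher in NOD, tested and not called, lower in NOD, and not tested because Cy5 was well above background on fewer than 4 of 12 arrays. The macrophage and C1q genes show 5 higher and 4 not tested, most other macrophage genes were not tested, and with median centring no gene of any list was called lower.

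The genes outside the set whose pattern over the 12 arrays was most like its mean were Gbp2 (root mean square difference of standardised log2 ratios 0.135), Ctsh (0.168), Rpl22 (0.169), Ptprc (0.170) and Pou2af1 (0.179), where the median of all tested genes was 1.32. Gbp2 is an interferon-inducible GTPase, Rpl22 a ribosomal protein and Pou2af1 a B cell coactivator. The 5 genes themselves lay at 0.195 (C1qc) to 0.408 (Aif1). All were higher in NOD, with changes of 2.20, 2.03, 2.08, 4.09 and 2.78 for the outside genes in the order named. The choice by likeness to genes higher in NOD set this direction. Gbp2, Ptprc and Pou2af1 were above background on 0 NOD.B10 arrays, so the size of their changes rests on values near background.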

How the data were processed

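Scanner intensity values (median signal and local background of both channels) were deposited for each mouse. Per the file headers, Feature Extraction 10.5.1.1 made them. The same deposited files hold processed intensity values and a log10 ratio of Cy5 to Cy3, background-subtracted and dye-normalised per the file headers. The deposited series table holds log2 ratios of processed Cy5 over Cy3, as a comparison of the values showed; the labels do not state it. Control spots were left out after background correction, and spots marked as outliers (160 to 250 per array) were left out where another spot of the probe remained. No spot was saturated.

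Background was corrected by normexp with an offset of 50, and each array was then loess-normalised in limma 3.58.1 (R 4.3.3). Probes were named by matching their accession to a RefSeq table of GRCm38.p6, which named 24387 of 41174 probes. Another 1073 passing probes had no symbol. A gene was represented by its probe of highest mean Cy5. Strains were compared with lmFit and eBayes, with p-values adjusted over 3922 genes. Pairs of genes and reference signals used exact permutation over samples. The fit was tested on simulated data. Array data carry no counts, so the 6 arrays per strain and the signal over background limit precision.

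The 10 genes and the lists were chosen with earlier results of these data known. Named were all 10 genes, up to 4 genes per other list with the smallest p among those called, the 5 genes of most similar pattern, and Ins1, Ins2, Gcg and Ptprc. One gene that this rule names is not reported here. Adgre1, Itgam, Cd14, Cx3cr1, Mrc1, Mertk, Irf8, Cfp, Calr, Syk, Trem2, Fcgr3, Fcgr1, Pik3cd, Inpp5d, Hcst, Csf1, Akt1 and Lyz1 were added after their values were seen. The replicate numbers do not pair the mice.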

Additional observations from a re-analysis of the deposited data

Results flagged for a closer look

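The Mpeg1 log2 ratio of NOD.B10 replicate 1 was 0.258, apart from the other NOD.B10 mice, which lay between -0.0622 and 0.0507. The gap took 0.648 of the range of the group, above Dixon's critical value of 0.625 for 6 samples. It was the only one of 10 comparisons (5 tested genes in 2 strains) past that value, and chance alone marks about 1 group in 20. This mouse was still below all 6 NOD mice, and without it all 5 tested genes were still called higher.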

How the results depend on the processing

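All 5 tested genes were also called higher with median centring, the scanner's ratios, Cy5 alone, slide as a term, without slide 4, with array weights, with other filters and without each of the 12 mice. Leaving out mice gave changes of 3.88 to 4.16 for Lyz2, 2.01 to 2.32 for Mpeg1, 1.58 to 1.89 for C1qc, 0.96 to 1.24 for Fcer1g and 0.77 to 0.96 for Aif1, with 601 to 851 genes higher and 577 to 808 lower. Genes called higher, of 3922 unless stated, were 1984 with median centring, 131 of 836 with net ratios of probes bright on every array, 361 with slide as a term, 38 within slide 2, 1 within slide 3 and 3 with bright-spot share as covariate, against 735. Genes called lower were 0 with median centring (2 unadjusted), 313 with the scanner's ratios and with the deposited series table, 247 with Cy5 alone, 288 with net ratios, 354 with slide as a term, 46 within slide 2, 1 within slide 3, 0 with the covariate (limma; 137 unadjusted) and 1392 of 17026 with no filter, against 709. The split was thus 1094 higher to 313 lower with the scanner's ratios and 878 to 247 with Cy5 alone. The median change of all genes was 0.44 with median centring, 0.47 with the scanner's ratios and -0.33 with net ratios. Of the 5 genes, 1 was called with net ratios (Lyz2, the only one tested there), 1 within slide 2, 0 within slide 3 (3 unadjusted) and 1 with the covariate, where Fcer1g reversed to -0.064. Pair differences that turned with the scanner's ratios were Lyz2 less Aif1 (-0.43), Mpeg1 less C1qc (-0.23), Mpeg1 less Aif1 (-0.74), C1qc less Aif1 (-0.51) and Aif1 less Fcer1g (0.89). The cause was not tested. Same-numbered mice correlated between -0.15 and 0.21, so the numbers pair nothing; a replicate block gave 638 genes higher and 597 lower, with all 5 genes still called, and 2 of 6 mice matched their own number best.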
